A study of Mus musculus with 46 samples.

Results

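Ribosome biogenesis and nucleolar genes were examined in mouse liver tumours driven by a switchable Myc transgene. The members are 51 genes chosen by symbol as nucleolar proteins and ribosome assembly factors, with ribosomal proteins and RNA polymerase subunits left out. No measured value entered the rule, but earlier results of these data were known when the members were chosen. Of the 51 members, 50 were among the 21671 genes of the expression table, and the remaining one, Noc2l, was not analysed here. All 50 passed the filter on low values, under which 14566 genes were tested.

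Total RNA depleted of ribosomal RNA was sequenced from 46 liver or liver tumour samples of the FVB strain. Control liver gave 11 libraries from 11 animal IDs. Tumours with the genotype tet-Myc/LAPtTA (Myc tumours) gave 16 libraries from 7 IDs, and tumours of that genotype in which doxycycline food had silenced the transgene for 16 hours (Myc-off tumours) gave 8 libraries from 3 IDs. Tumours of a tet-MycVD transgene, which carries the V394D substitution (MycVD tumours), gave 11 libraries from 10 IDs. The LAPtTA driver acts in the liver only and turned the transgenes on in utero, so all 3 tumour groups had the transgene on from before birth. Whether control livers carried one of the transgenes, the ages and the sexes were not given in the sources used here. Tumours with the same ID were taken to come from the same animal and were averaged, so each n below counts IDs.

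A ribosome is built in the nucleolus, where RNA polymerase I transcribes a long precursor RNA that is folded, modified, cut and packed with ribosomal proteins. Small nucleolar RNPs of the box C/D kind methylate the precursor and those of the H/ACA kind pseudouridylate it. The small subunit processome assembles on its front part, and separate sets of factors carry the 40S and 60S precursors to the cytoplasm. Genes of these factors are a classical group of Myc targets, and Myc binds as a dimer with Max to E-boxes, of which CACGTG is the canonical form.

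Promoter sequence is shown for the members that hold this canonical E-box near their start site, since it is the letter string that Myc-Max dimers are known to prefer. The promoter table of RefSeq on the GRCm38.p6 build, from 250 bases before to 50 bases after each start, matched 43 of the 50 members. CACGTG, which reads the same on both strands, was found in 12 of them, or 27.9%. Of the promoters of all tested genes that matched, 10.0% of 10650 held it, and of all promoters listed there, one a gene, 7.24% of 27025. Each line gives 30 bases in the direction of the gene, with the E-box in capitals.

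Imp4, chr1:34439696-34439725, plus strand: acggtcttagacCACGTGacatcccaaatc
Nop2, chr6:125131811-125131840, plus strand: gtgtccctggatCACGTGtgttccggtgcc
Grwd1, chr7:45830740-45830769, minus strand: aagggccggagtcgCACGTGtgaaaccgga
Ltv1, chr10:13193092-13193121, minus strand: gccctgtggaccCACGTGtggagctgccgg
Utp20, chr10:88826765-88826794, minus strand: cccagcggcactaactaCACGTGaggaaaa
Pes1, chr11:3963965-3963994, plus strand: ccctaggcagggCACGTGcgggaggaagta
Pno1, chr11:17211540-17211569, minus strand: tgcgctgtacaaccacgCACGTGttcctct
Dhx33, chr11:71004450-71004479, minus strand: ccagcacgcctgCACGTGgcgagaaagggg
Tsr1, chr11:74898092-74898121, plus strand: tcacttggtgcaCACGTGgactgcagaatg
Nle1, chr11:82908355-82908384, minus strand: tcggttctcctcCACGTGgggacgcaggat
Utp18, chr11:93885769-93885798, minus strand: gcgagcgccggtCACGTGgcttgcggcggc
Wdr43, chr17:71616220-71616249, plus strand: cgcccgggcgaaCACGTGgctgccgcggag

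The first base of the E-box lay before the start site in Imp4 (121 bases), Nop2 (60), Dhx33 (35) and Utp18 (20). In the other 8 it lay after the start site, between 3 bases in Pes1 and 38 bases in Utp20 and Pno1. Members with and without the string in this window had similar medians. In Myc tumours against control liver the median log2 fold change was 1.47 over the 12 with it and 1.61 over the 31 without it. In Myc-off against Myc tumours it was -1.33 and -1.41.

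Compared with control liver, every one of the 50 members was higher in Myc tumours. After 16 hours of doxycycline every one was lower again than with the transgene on. Levels are exonic RPKM values (eRPKM), reads scaled by gene length and library total. Fold changes are differences of log2(eRPKM + 0.5) and were tested with limma over all genes, with Benjamini-Hochberg adjustment and a threshold of 0.05. In Myc tumours 50 of 50 members were called higher, beside 50.0% of all genes tested. The members' median log2 fold change was 1.53, beside 0.27 for all genes. The change was at least 2-fold for 41 members, beside 23.9% of all genes. In 46 members the lowest Myc tumour ID lay above the highest control ID, beside 34.8% of all genes. The exceptions were Nop10, Imp3, Emg1 and Pno1.

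**Figure D1:**
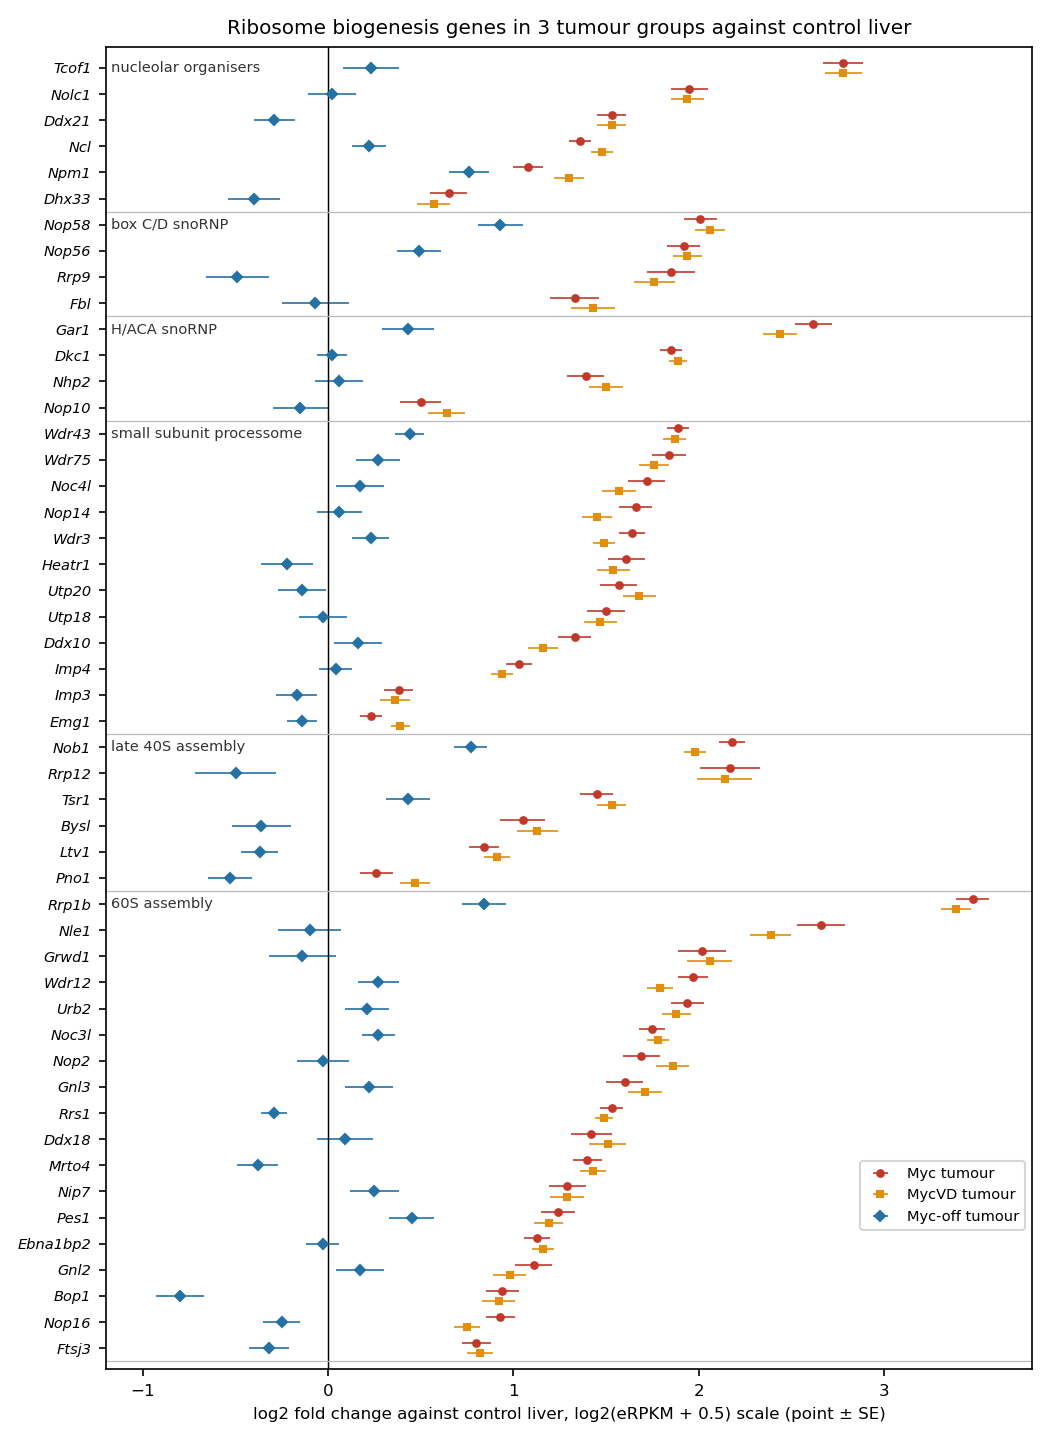
Log2 fold change against control liver (x axis, point ± SE) of the 50 genes, in blocks by role and sorted by the Myc tumour value, for Myc (red circles), MycVD (orange squares) and Myc-off tumours (blue diamonds). Myc and MycVD points lie to the right of 0 for every gene, from 0.23 for Emg1 to 3.48 for Rrp1b in Myc tumours, while Myc-off points lie between -0.80 and 0.93.

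The size of these changes depended on the scaling. With median-ratio scaling of the libraries, which moved the median of all genes from 0.27 to 0.04, 47 members were called higher and their median was 1.28. The 3 that lost the call were Imp3 at 0.13, Emg1 at -0.02 and Pno1 at 0.01. The share of all genes called higher with this scaling is not given here. A ceiling of reads per kb, which would lower abundant genes in deep libraries, was inferred from the values. Whether duplicate reads were removed was not given in the sources used here. In Myc tumours 34 of the 50 members averaged over 400 reads per kb, against 3 in control liver. A correction that assumes such a ceiling, with reads per start position capped at 1.9, gave a median of 1.70.

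Depth recovered from the values was 5.63 to 8.95 M reads per control library, 7.28 to 12.6 in Myc, 3.25 to 10.4 in Myc-off and 6.18 to 10.6 in MycVD tumours. Comparisons with the 3 Myc-off IDs are the least precise. Every Myc-off ID has a higher number than any other ID, and every MycVD ID a higher number than any Myc tumour ID. Effects of date or handling on these groups cannot be told apart from those of the switch-off and the substitution. Gapdh was below 30 eRPKM in 8 libraries of the control, Myc and MycVD groups. Without them the members' medians were 1.5 in Myc tumours against control liver and -1.40 in Myc-off against Myc tumours. One Myc-off library, tumour C of ID150584, stood apart with 3.25 M reads and Gapdh at 99.2 eRPKM. The gene Myc was at 7.75 ± 1.69 eRPKM in Myc tumours (SD, n = 7) and 6.35 ± 5.10 in control liver (n = 11), but it is not stated from which species the transgene comes, so this value is no check of the labels.

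Among the nucleolar organisers, Ncl encodes nucleolin, an abundant protein that binds ribosomal DNA and precursor RNA. Ncl ran from 27.8 to 35.3 eRPKM over control IDs (median 32.1) and from 77.3 to 86.1 over Myc tumour IDs (median 81.8). The 3 Myc-off IDs were at 48.2, 31.7 and 34.0, and MycVD IDs ran from 78.0 to 105 (median 88.9). All tumours with the transgene on were thus above every control and Myc-off ID, and 1 Myc-off ID lay above the controls. The log2 fold change was 1.36 ± 0.06 (SE, adjusted p = 1.3e-18) in Myc tumours against control liver and -1.14 ± 0.09 (adjusted p = 9.8e-12) after switch-off. In the high Myc-off ID, ID150584, the 3 tumours were at 43.5, 36.1 and 65.2 eRPKM, the last being the library of low depth.

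Npm1, which encodes the nucleolar chaperone nucleophosmin, fell least of all members after switch-off in values not corrected for the read ceiling. It was at 46.7 to 66.8 eRPKM in control IDs (median 61.8) and 109 to 161 in Myc tumours (median 128). With the transgene off the IDs were at 120, 91.2 and 103, and MycVD IDs at 114 to 184 (median 146). Only ID150584, at 120 eRPKM, lay within the Myc tumour range, and every Myc-off ID lay above all controls. The tumours of ID150584 were at 123.6, 68.4 and 168.4 eRPKM, the last being the library of low depth. Against Myc tumours the log2 fold change was -0.32 ± 0.12 (adjusted p = 0.027), and this call was lost with median-ratio scaling (-0.25), without ID151964 (-0.24) and without ID153344 (-0.33). Npm1 had the highest mean level of all members in every group, so the read ceiling may have lowered its values and its fall. Its change with the ceiling correction is not given here. Npm1 is also known to have processed pseudogenes, so its counts are uncertain.

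Tcof1 encodes treacle, which links RNA polymerase I transcription to precursor processing, and had the largest change of this class. Its levels were 3.604 to 7.75 eRPKM in control IDs (median 4.88) and 33.2 to 45.6 in Myc tumours (median 39.9). After switch-off the IDs were at 5.30, 7.39 and 6.40, and MycVD tumours were at 29.4 to 48.6 (median 40.03). Every Myc-off value fell within the control range. Its top, at 7.75, was the control library low in Gapdh, and the next highest control was at 6.12, below the Myc-off values 7.39 and 6.40. Tcof1 was 2.78 ± 0.11 higher on the log2 scale in Myc tumours than in control liver (adjusted p = 3.4e-20). Dhx33, a DEAH-box helicase gene, had the smallest change at 0.65 ± 0.10 (adjusted p = 1.1e-06). It averaged 18.5 ± 3.87 eRPKM in control liver (n = 11), 28.7 ± 1.71 in Myc tumours (n = 7) and 13.6 ± 0.972 in Myc-off tumours (n = 3). Nolc1, which encodes a phosphoprotein that gathers small nucleolar RNPs, and the RNA helicase gene Ddx21 lay between these, at 1.95 and 1.53.

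All 4 box C/D genes rose, by a median of 1.88. Fbl encodes fibrillarin, the methyltransferase of these particles. Its level ran from 20.8 to 44.8 eRPKM in control IDs (median 23.9), from 52.1 to 90.2 in Myc tumours (median 64.7) and from 49.8 to 92.4 in MycVD tumours (median 67.4). Fbl in the Myc-off IDs was at 30.8, 20.5 and 21.9, with 1 just under the lowest control. Fbl also had the widest spread between IDs of all members in Myc tumours, a coefficient of variation of 20.6%, where the median member had 9.22%. Fbl was at 73.0 to 110 eRPKM in the 5 Myc tumour libraries low in Gapdh and at 50.9 to 81.5 in the other 11. The highest control, at 44.8, was low in Gapdh too, and the other 10 ran from 20.8 to 27.8. In MycVD tumours the 2 libraries low in Gapdh were at 83.4 and 92.4, above the other 9 at 49.8 to 74.9. Its log2 fold change was 1.33 ± 0.13 in Myc tumours against control liver (adjusted p = 9.4e-11) and -1.40 ± 0.19 after switch-off (adjusted p = 2.3e-07). Without the libraries low in Gapdh these were 1.31 ± 0.09 and -1.30 ± 0.13.

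Nop56 and Nop58 encode the paired scaffold proteins of the box C/D particle, and both were called higher than control liver after switch-off. Nop58 was at 15.7 to 23.0 eRPKM in control IDs (median 19.2) and 65.5 to 97.9 in Myc tumours (median 78.7). Myc-off IDs were at 28.5, 41.9 and 42.1, and MycVD tumours at 65.0 to 98.7 (median 79.5). The 3 Myc-off values lay between the control and the Myc tumour ranges without touching either. Nop58 rose by 2.01 ± 0.09 in Myc tumours (adjusted p = 8.7e-19) and Nop56 by 1.92 ± 0.09 (adjusted p = 7.4e-19). Nop56 averaged 30.7 ± 5.55 eRPKM in control liver, 116 ± 8.70 in Myc tumours and 42.8 ± 5.03 in Myc-off tumours (n = 11, 7 and 3). Rrp9, which encodes a protein of the U3 particle, rose by 1.85 and fell by 2.33 after switch-off.

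**Figure D2:**
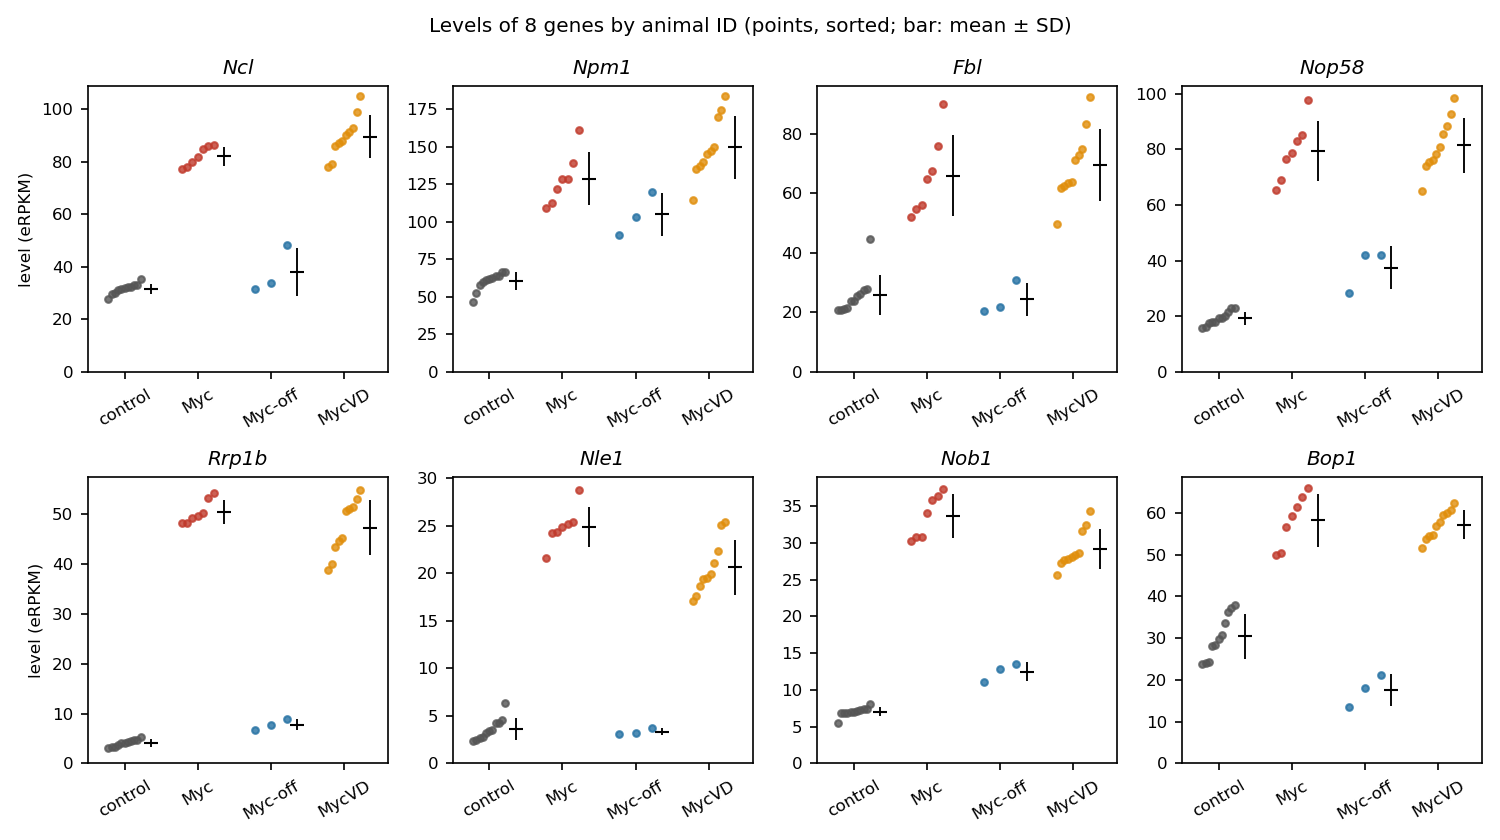
Level in eRPKM (y axis, from 0) of 8 genes in each animal ID (points) of control liver, Myc, Myc-off and MycVD tumours, with the mean and SD of each group as a black bar. Myc and MycVD points overlap one another in all 8 panels; Myc-off points lie within the control range for Nle1, within or just below it for Fbl, partly above it for Ncl, above it for Npm1, Nop58, Rrp1b and Nob1, and below it for Bop1.

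In the H/ACA class, Dkc1 encodes dyskerin, the pseudouridine synthase that is also a telomerase component. Control IDs ran from 15.8 to 19.9 eRPKM (median 16.4), Myc tumours from 56.0 to 71.0 (median 61.3) and MycVD tumours from 54.0 to 73.4 (median 63.7). The Myc-off IDs were at 17.8, 15.7 and 18.0, with 1 just under the lowest control. Dkc1 rose by 1.85 ± 0.06 in Myc tumours (adjusted p = 5.5e-23) and fell by 1.83 ± 0.08 after switch-off (adjusted p = 3.5e-17). Gar1, which encodes another core protein of the particle, rose most in this class, from 2.72 to 6.24 eRPKM in control IDs (median 4.92) to 26.8 to 34.4 in Myc tumours (median 31.2), a log2 fold change of 2.62 ± 0.10 (adjusted p = 2.8e-20). Myc-off IDs had 6.27, 7.37 and 5.68 eRPKM of Gar1.

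Nop10 encodes the smallest core protein of the H/ACA particle and changed least there. It was already at 59.2 ± 10.9 eRPKM in control liver (n = 11) and at 83.0 ± 10.1 in Myc tumours (n = 7), and the IDs overlapped. The log2 fold change was 0.50 ± 0.11 (adjusted p = 1.2e-04). Nhp2, the remaining core gene, rose by 1.39 and fell by 1.34 after switch-off.

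The 12 genes of the small subunit processome rose by a median of 1.59, and 10 of them lay between 1.03 (Imp4) and 1.89 (Wdr43). Wdr43 encodes a subunit that joins the precursor early. Its levels were 15.9 to 21.5 eRPKM in control IDs (median 17.6), 63.4 to 76.0 in Myc tumours (median 66.6) and 59.3 to 75.1 in MycVD tumours (median 68.6). In Myc-off tumours the IDs were at 22.9, 24.6 and 26.5, each just above the highest control. The log2 fold change was 1.89 ± 0.06 in Myc tumours (adjusted p = 1.4e-22) and -1.45 ± 0.09 after switch-off (adjusted p = 3.2e-14). The scaffold genes Heatr1 and Utp20 rose by 1.61 and 1.57, the WD40-repeat genes Wdr75, Wdr3 and Utp18 by 1.84, 1.64 and 1.5, and Nop14, Noc4l and the helicase gene Ddx10 by 1.66, 1.72 and 1.33.

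Imp3 and Emg1 stood below the rest of this class. Emg1, which encodes a methyltransferase that modifies a pseudouridine of 18S ribosomal RNA, was at 50.7 to 63.3 eRPKM in control IDs (median 54.5) and 58.9 to 75.6 in Myc tumours (median 63.0). Myc-off IDs were at 48.8, 51.1 and 50.98, and MycVD tumours at 62.1 to 80.8 (median 74.0). Control and Myc tumour IDs overlapped, and the log2 fold change was 0.23 ± 0.06 (adjusted p = 3.6e-04). After switch-off it was -0.38 ± 0.08 (adjusted p = 2.3e-04). Imp3, a partner of the U3 particle, averaged 59.4 ± 8.80, 77.3 ± 7.79 and 52.8 ± 5.06 eRPKM in control liver, Myc and Myc-off tumours (n = 11, 7 and 3). Its changes were 0.38 ± 0.08 in Myc tumours (adjusted p = 1.4e-04) and -0.55 ± 0.12 after switch-off (adjusted p = 2.9e-04). With the ceiling correction the changes of Emg1 and Imp3 were 0.36 and 0.56 in Myc tumours, and -0.49 and -0.71 after switch-off.

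The late 40S assembly genes, whose products mature the small subunit precursor on its way to the cytoplasm, spanned a wide range. Nob1 encodes the endonuclease that makes the final cut at the end of 18S ribosomal RNA. It was at 5.48 to 8.13 eRPKM in control IDs (median 7.02) and 30.2 to 37.3 in Myc tumours (median 34.0). Myc-off IDs were at 13.5, 11.0 and 12.9, and MycVD tumours at 25.6 to 34.3 (median 28.2). Myc-off values again lay in the gap between the controls and the Myc tumours. Nob1 rose by 2.18 ± 0.07 in Myc tumours (adjusted p = 3.7e-23) and fell by 1.41 ± 0.10 after switch-off (adjusted p = 3.6e-13).

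Pno1 encodes the RNA-binding partner of Nob1 and changed far less. Its control IDs ran from 26.1 to 43.6 eRPKM (median 35.3), and Myc tumours from 37.0 to 45.9 (median 41.6). The Myc-off IDs were at 18.8, 26.4 and 27.9, with 1 below all controls. The change in Myc tumours was 0.26 ± 0.09 (adjusted p = 0.0093), and after switch-off it was -0.79 ± 0.13 (adjusted p = 6.1e-06). Pno1 therefore ended below its control level, at 24.4 ± 4.88 eRPKM (n = 3) against 35.2 ± 5.12 (n = 11).

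Rrp12, an assembly and export factor gene, had the second largest fall of all members after switch-off. Myc tumours were at 34.2 to 46.8 eRPKM (median 41.2) and the Myc-off IDs at 4.57, 8.56 and 5.43, a log2 fold change of -2.67 ± 0.24 (adjusted p = 7.9e-11). Control IDs ran from 4.84 to 16.5 (median 8.57), so 1 Myc-off ID lay under the control range. Bysl, Ltv1 and Tsr1, which encode factors bound to the 40S precursor, rose by 1.05, 0.84 and 1.45. Exons of Tsr1 and Bysl overlap genes of the opposite strand, Srr over 34.2% and Ccnd3 over 9.4% of their exon bases (GENCODE M21), and the libraries do not keep strand. The same holds at 5% or more for Urb2 (10.0%) and Nop14 (5.3%).

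The 18 genes of 60S assembly had a median rise of 1.48 and held both the largest rise and the largest fall of all members. Rrp1b encodes a nucleolar protein that binds 60S precursors. Control IDs ran from 3.02 to 5.31 eRPKM (median 4.15), Myc tumours from 48.1 to 54.3 (median 49.5) and MycVD tumours from 38.8 to 54.8 (median 48.0). The Myc-off IDs were at 6.79, 8.93 and 7.65, all just above the highest control. The mean was 12.3 times the control mean in Myc tumours and 1.9 times it in Myc-off tumours. On the log2 scale Rrp1b rose by 3.48 ± 0.09 (adjusted p = 4.1e-25) and fell by 2.64 ± 0.13 (adjusted p = 1.4e-16).

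Nle1 encodes the Notchless homologue, which helps to strip assembly factors from the 60S precursor. Its control IDs ran from 2.38 to 6.38 eRPKM (median 3.43), Myc tumours from 21.6 to 28.8 (median 24.9) and MycVD tumours from 17.1 to 25.4 (median 19.7). The Myc-off IDs, at 3.19, 3.76 and 3.08, were all within the control range. The rise was 2.66 ± 0.13 (adjusted p = 2.1e-18) and the fall 16 hours after switch-off was -2.76 ± 0.18 (adjusted p = 1.6e-13).

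Bop1, Pes1 and Wdr12 encode the PeBoW complex, which is needed to process the 60S precursor RNA. Bop1 was at 23.8 to 38.0 eRPKM in control IDs (median 29.9), 49.9 to 65.8 in Myc tumours (median 59.3) and 51.5 to 62.4 in MycVD tumours (median 57.3). Its Myc-off IDs were at 13.5, 21.1 and 18.1, below every control. Bop1 rose by 0.94 ± 0.09 in Myc tumours (adjusted p = 1.7e-10) and fell by 1.74 ± 0.14 after switch-off (adjusted p = 6.4e-12). Pes1 averaged 24.1 ± 4.63 in control liver, 57.2 ± 6.91 in Myc tumours and 32.8 ± 2.90 in Myc-off tumours (n = 11, 7 and 3). Wdr12 averaged 10.0 ± 1.60, 40.7 ± 3.21 and 12.2 ± 1.09 eRPKM in the same groups. Against control liver, Myc-off values of Bop1 were lower (-0.80 ± 0.13), while those of Pes1 (0.45 ± 0.12) and Wdr12 (0.27 ± 0.11) were higher, and the differences between the 3 genes were not tested. Wdr12 lost its call under 5 of the 17 alternatives, among them median-ratio scaling (adjusted p = 0.426) and leaving out ID150584 (0.0619) or ID153344 (0.176).

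Gnl3, the gene of the nucleolar GTPase nucleostemin, was at 20.5 to 41.0 eRPKM in control IDs (median 32.8) and 93.0 to 110 in Myc tumours (median 99.2). Myc-off IDs were at 27.4, 46.4 and 44.2, and MycVD tumours at 89.5 to 122 (median 110). It rose by 1.60 ± 0.10 (adjusted p = 1.6e-15) and fell by 1.39 ± 0.14 (adjusted p = 1.5e-09), and 2 of the 3 Myc-off IDs lay above all controls. Ftsj3, a methyltransferase gene, had the smallest rise of the class at 0.80 ± 0.08 (adjusted p = 2.3e-10), from 55.0 ± 8.31 eRPKM in control liver to 95.4 ± 8.40 in Myc tumours (n = 11 and 7). Among the rest, the rise was 2.02 for Grwd1, 1.94 for Urb2, 1.75 for Noc3l, 1.69 for the methyltransferase gene Nop2, 1.53 for Rrs1, 1.42 for the helicase gene Ddx18 and 1.40 for Mrto4. It was 1.29 for Nip7, 1.13 for Ebna1bp2, 1.11 for the GTPase gene Gnl2 and 0.93 for Nop16.

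The comparison of Myc-off with Myc tumours asks what 16 hours without the transgene do. All 50 members were called lower, beside 28.2% of all genes tested, with a median of -1.42 beside -0.01 for all genes. The fall was at least 2-fold for 42 of them, beside 9.93% of all genes. In 49 of 50, every Myc-off ID was below every Myc tumour ID, beside 26.2% of all genes. The exception was Npm1, through ID150584 alone. Class medians were close to each other, at -1.48 for nucleolar organisers, -1.42 for box C/D, -1.58 for H/ACA, -1.49 for the processome, -1.31 for late 40S and -1.59 for 60S assembly. With the ceiling correction the members' median was -1.58. In these bulk samples fewer cells of a type and less RNA per cell cannot be told apart. This comparison shares the Myc tumours with that against control liver, so its values are set beside the others and no relation between them was computed.

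The comparison of Myc-off tumours with control liver asks how far the members had returned to the level of normal liver. Most stood close to it: the median was 0.03, beside 0.15 for all genes tested, and no member was called at 2-fold or more in either direction, beside 16.0% of all genes higher and 7.77% lower by that measure. There were 13 members called higher, beside 36.3% of all genes, and 10 called lower, beside 21.6%. With median-ratio scaling these counts were 7 and 16, and with quantile normalisation 9 and 15. The shares of all genes above are for values without such rescaling, and those under these scalings are not given here. The Myc-off IDs lay above all controls for 5 members (Nop58, Rrp1b, Nob1, Npm1 and Wdr43), beside 25.7% of all genes, and below all controls for 1 (Bop1), beside 14.2%.

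The members highest above control after switch-off were Nop58 at 0.93 ± 0.12 (adjusted p = 1.6e-07), Rrp1b at 0.84 ± 0.12 (5.5e-07), Nob1 at 0.77 ± 0.09 (1.5e-08), Npm1 at 0.76 ± 0.11 (1.3e-06) and Nop56 at 0.49 ± 0.12 (7.3e-04). These 5, with Wdr43 and Pes1, were called higher under all 17 alternative settings as well. The lowest were Bop1 at -0.80 ± 0.13 (adjusted p = 3.1e-06), Pno1 at -0.53 ± 0.12 (4.3e-04), Rrp9 at -0.49 ± 0.17 (0.0144), Dhx33 at -0.40 ± 0.14 (0.0129) and Mrto4 at -0.38 ± 0.11 (0.00337). Of these, Bop1 and Pno1 kept the call under every setting, as did Ltv1 and Rrs1, whereas Rrp9, Dhx33 and Mrto4 lost it without ID150584 (adjusted p = 0.138, 0.08 and 0.0582). Ncl, called higher at 0.22 ± 0.09 (adjusted p = 0.0252), lost the call without the shallow library of that ID. Smallest were the differences of Dkc1 (0.02 ± 0.08), Nolc1 (0.02 ± 0.13) and Utp18 (-0.03 ± 0.13), none of which passed (adjusted p = 0.826, 0.894 and 0.881) and all of which changed sign under some settings. The 95% interval of the difference lay within 0.5 on the log2 scale for 27 of the 50 members.

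Over the members as a set, the median difference from the control mean was -0.15, 0.10 and 0.10 on the log2 scale in the Myc-off IDs ID150584, ID151964 and ID153344. Control IDs ran from -0.30 to 0.25, Myc tumours from 1.41 to 1.74 and MycVD tumours from 1.35 to 1.71. The Myc-off IDs thus all lay inside the control range. Controls with the highest ID numbers were ID141041 (-0.16), ID141048 (-0.14), ID142606 (-0.01) and ID142608 (-0.30), below the 0.10 of ID151964 and ID153344. The other controls ran from -0.07 to 0.25, and a difference by ID number was not tested. By tumour, ID150584 was at -0.17, 0.04 and -0.32, the last being the shallow library.

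The V394D substitution is known to reduce the contact of Myc with its partner Miz1. In MycVD against Myc tumours, date or handling cannot be told apart from the substitution. No member was called higher by limma, beside 6.56% of all genes, and 1 was called lower, beside 9.17%. At an unadjusted p under 0.05 the counts were 3 and 6. The shares of all genes at that threshold are not given here, so these counts are not read as a result. The member called lower was Nob1, at 29.2 ± 2.70 eRPKM in MycVD (n = 10) and 33.6 ± 2.99 in Myc tumours (n = 7). Its log2 fold change was -0.20 ± 0.07 (adjusted p = 0.0441). The IDs overlapped, and the call was lost under 5 of the 17 alternatives, where the adjusted p ran up to 0.171. The members' median was -0.01, beside -0.04 for all genes, and single values ran from -0.27 (Nle1) to 0.22 (Npm1). The 95% intervals lay within 0.5 on the log2 scale for 49 of 50 members, and the widest bounds were -0.53 and 0.39. Counts of called members changed with the setting, up to 7 lower with quantile normalisation and 5 higher with array weights. The shares of all genes under those settings are not given here.

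**Figure D3:**
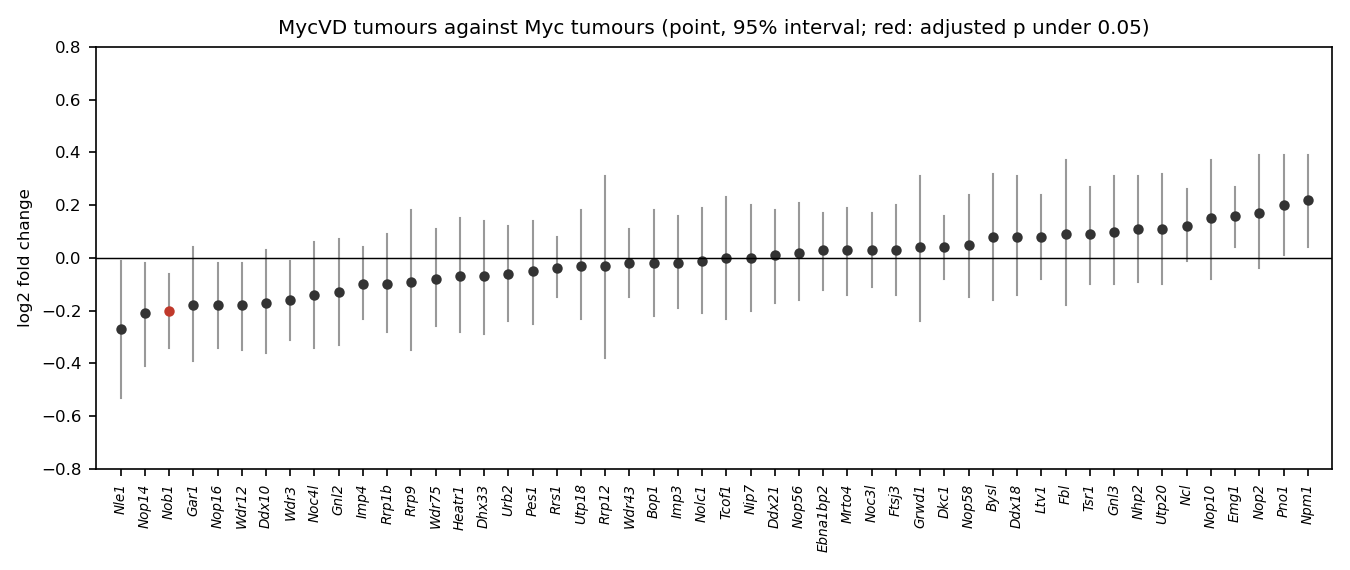
Log2 fold change of MycVD against Myc tumours (y axis, point with 95% interval) for the 50 genes, sorted by value, with a called gene in red. Values run from -0.27 to 0.22, and only Nob1 at -0.20 is called.

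Against control liver, MycVD tumours had 50 of 50 members higher, beside 49.1% of all genes, with a median of 1.51 beside 0.22. The rise was at least 2-fold for 39, beside 20.9% of all genes. Rrp1b at 3.39 ± 0.08 (adjusted p = 4.7e-26), Tcof1 at 2.78 ± 0.10 (2.0e-21) and Gar1 at 2.44 ± 0.09 (1.0e-20) were highest, and Imp3 at 0.36 ± 0.08 (7.2e-05) was lowest. With median-ratio scaling 49 were called, and Imp3 was not, with no share of all genes given for that scaling.

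Tumours of the same animal also differed from one another. Over the 5 Myc tumour IDs with several tumours, 14 tumours in all, the median SD of a member within animals was 0.14 on the log2 scale. Between the means of the 7 Myc tumour IDs it was 0.13. For all genes tested these SDs were 0.20 and 0.17. An ID mean averages up to 4 tumours and still holds part of their spread, so the SDs within and between animals are unlike measures. The 5 Myc tumour libraries low in Gapdh were all among these 14 tumours, and their part in the spread was not tested.

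Other genes of ribosome production were compared by their counts. Of 88 other assembly factors, 84 were higher and 3 lower in Myc tumours than in control liver (median 1.05), and 79 were lower and 1 higher after switch-off (median -1.07). Ppan, a 60S assembly gene, had the largest rise among these at 2.43 ± 0.09 (adjusted p = 6.6e-21). Naf1, an H/ACA assembly gene, fell most after switch-off, by 2.43 ± 0.15 (adjusted p = 5.2e-14). The smallest changes were Nol7 at 0.17 ± 0.08 (adjusted p = 0.0495) in Myc tumours and Eif6 at -0.01 ± 0.13 (adjusted p = 0.946) after switch-off.

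Of 20 genes of the RNA polymerase I machinery, 18 were higher and 1 lower in Myc tumours (median 0.87), and 18 were lower after switch-off (median -0.84). Cd3eap rose most, by 2.51 ± 0.10 (adjusted p = 5.7e-20), and Polr1e fell most, by 2.28 ± 0.19 (adjusted p = 2.1e-11). Znrd1 had the smallest value in both, at 0.01 ± 0.11 and 0.03 ± 0.16 (adjusted p = 0.942 and 0.902). Of 79 ribosomal protein genes, 31 were higher and 1 lower in Myc tumours (median 0.11), and 2 were higher and 9 lower after switch-off (median 0.11). Over all genes tested 50.0% were higher and 29.9% lower in Myc tumours, and 22.2% were higher and 28.2% lower after switch-off. Rps15a at 1.42 ± 0.07 (adjusted p = 1.2e-18) and Rpl34 at -1.34 ± 0.32 (adjusted p = 8.7e-04) were their largest changes in these comparisons. In MycVD against Myc tumours, 18 of the 79 ribosomal protein genes were higher and 0 lower (median 0.23), beside 6.56% and 9.17% of all genes. The values of these lists were not corrected for the inferred read ceiling, which would lower abundant genes in deep libraries. Small changes of abundant ribosomal protein genes are therefore uncertain. The differences between the lists were not tested.

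**Figure D4:**
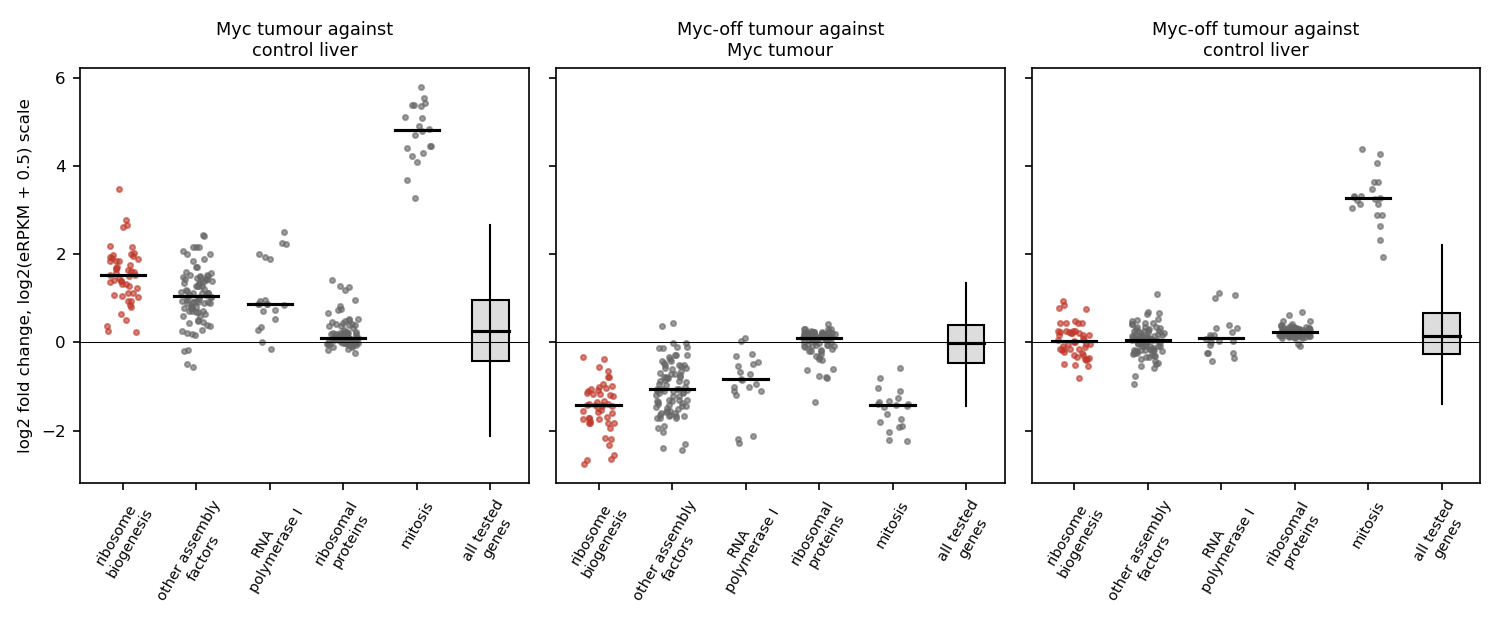
Log2 fold changes (y axis) in 3 comparisons for the 50 ribosome biogenesis genes (red points), other assembly factors, RNA polymerase I genes, ribosomal protein genes and mitosis genes (grey points), with list medians as black lines; the box of all tested genes spans the middle quartiles and its line the 5th to 95th percentile. The members' median is 1.53, -1.42 and 0.03 from left to right, while the mitosis list stays at 3.27 in Myc-off tumours against control liver.

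Cell type markers moved with the groups as well. All 15 hepatocyte markers were lower in Myc tumours than in control liver, and their summed level was 604 to 1020 eRPKM over Myc tumour IDs, 1540 to 2660 over control IDs, 1390 to 1580 over Myc-off IDs and 880 to 1250 over MycVD IDs. Of 20 mitosis genes, 20 were higher in Myc tumours (median 4.82) and 19 lower after switch-off (median -1.43). In Myc-off tumours they still summed to 310 to 406 eRPKM, against 15.9 to 47.0 in control liver and 822 to 976 in Myc tumours. Neutrophil markers in Myc tumours summed to 67.3 to 227 eRPKM, those in Myc-off tumours to 133 to 355, and those in control liver to 15.5 to 28.6, where the defining genes Mpo and Ltf were near 0. After switch-off, 7 of 7 cholangiocyte markers were higher than in Myc tumours (median 1.65). All 9 genes on that list summed to 53.4 to 155 eRPKM in Myc-off IDs, 21.7 to 43.3 in Myc, 16.1 to 81.3 in MycVD and 25.9 to 46.0 in control IDs. Of 12 endothelial markers, 8 were lower in Myc tumours than in control liver, with sums of 122 to 162 against 247 to 450 eRPKM, and 100 to 168 in Myc-off IDs. For erythroid markers the control IDs had sums of 46.4 to 85.6 eRPKM, the Myc IDs 71.2 to 287 and the Myc-off IDs 77.1 to 292. The part of these cells in the members' changes was not tested.

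The members followed one another closely over the 31 IDs. Pearson's r of a member with the mean of the other members, on the log2 scale, ran from 0.703 (Pno1) to 0.992 (Nolc1), with Imp3 at 0.788 and Nop10 at 0.797 next to the lowest. Outside the members, the genes most like their mean were Pus7 (r = 0.995), Polr1b (0.994), Prmt3 (0.993), Lyar (0.992) and Gemin6 (0.992). Pus7, for example, averaged 11.8 eRPKM in control liver, 55.9 in Myc tumours, 12.1 in Myc-off tumours and 55.6 in MycVD tumours. These values describe the 31 IDs, which share the 4 groups, and carry no test.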

How the data were processed

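The authors deposited a table of exonic RPKM values (eRPKM) for 21671 genes in 46 libraries, made from Ribozero-depleted total RNA with the TruSeq RNA v2 kit, which keeps no strand, per the labels' protocols. Per the submitters' processing notes, TopHat2 2.0.8 and the build mm9 were used. The counter, annotation, duplicate treatment and RPKM denominator were not given in the sources used here. RPKM steps gave whole reads for 100.0% of values above 0 (tolerance 0.001 reads, 19463 genes), and from these the depth, 3.25 to 12.6 M reads. Values were taken as log2(eRPKM + 0.5), averaged over tumours of an ID, filtered at 1 eRPKM in at least 3 IDs (14566 genes) and fitted with limma 3.58.1 in R 4.3.3 (trend, two-sided, all 4 groups, 5 comparisons, Benjamini-Hochberg over all genes). The fit was tested on simulated data. Fold changes on this scale understate low genes. The 17 alternatives covered scaling, filter, pseudocount, the treatment of IDs, weights, depth, the read ceiling and left-out IDs or libraries; 2 were added after seeing the data. IDs were taken as animals. The p-values set each group difference against the spread of ID means within groups, which also holds part of the spread between tumours. Named genes followed a rule: 7 well-known members, the largest and smallest per role class, and the extremes of each comparison. The members and lists were chosen with earlier results of these data known. No coordinates of the table's build were used; promoters are from RefSeq and overlaps from GENCODE M21, on another build.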

Additional observations from a re-analysis of the deposited data

Results flagged for a closer look

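In groups of 4 to 10 IDs, Myc and MycVD tumours, 4 of 100 pairs of group and member had an ID far from the rest by Dixon's criterion, where chance alone gives about 1 in 20. All 4 were low values in MycVD tumours, and 3 were in ID134660. There Emg1 was at 62.1 eRPKM (the other IDs 70.9 to 80.8), Tsr1 at 28.8 (34.5 to 38.2) and Mrto4 at 59.4 (66.5 to 73.7). In ID133763, Grwd1 was at 47.6 eRPKM (54.0 to 58.3).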

How the results depend on the processing

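The members' direction in Myc tumours and MycVD tumours against control liver, and in Myc-off against Myc tumours, was the same under all 17 alternatives, with 1 exception, Emg1 in Myc tumours against control liver (-0.02 with median-ratio scaling). Medians moved by more than the spread of 0.14 between IDs in these cases: with median-ratio scaling to 1.28 (Myc), 1.30 (MycVD) and -0.15 (Myc-off), each against control liver, and with the read ceiling correction to 1.70 (Myc), 1.68 (MycVD) and -1.58 (Myc-off against Myc tumours). In Myc-off tumours against control liver, 7 members were higher and 16 lower with median-ratio scaling, and 8 and 5 with only these groups fitted. Leaving out 1 Myc-off ID gave 10 to 15 higher and 4 to 12 lower, the 4 without ID150584. Signs turned for Dkc1 (-0.16 with median-ratio scaling, -0.10 with quantile normalisation, and -0.01 to 0.08 on leaving out 1 Myc-off ID, with -0.01 without ID150584 or ID153344), for Nolc1 (-0.16 and -0.05 with those scalings, -0.06 to 0.15 on leaving out 1 Myc-off ID, with -0.06 without ID151964 and -0.02 without ID153344) and for Utp18 (0.09 with array weights, 0.01 with the ceiling correction, 0.04 without ID150584, 0.03 without the shallowest library, 0.02 without the libraries low in Gapdh). In MycVD against Myc tumours the numbers higher and lower were 1 and 0 with median-ratio scaling, 5 and 5 with array weights, and 1 and 4 with only these groups fitted. The number lower was 7 with quantile normalisation, 6 with every library as its own sample, and 0 with ID as a random effect or depth as a covariate. The number higher was 3 without the libraries low in Gapdh. These counts are given without the shares of all genes under the same settings, so a shift may not be particular to the members. The cause of these shifts was not tested. Depth, the inferred read ceiling and the 3 Myc-off IDs each limit these values, and were not ranked. No paired analysis was possible because replicate numbers of the groups pair no samples.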
